A study of Mus musculus with 6 samples.

Results

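The 9 genes described here, 9 rows of a table of 24935, mark the cells that wrap the blood vessels of the brain: Pdgfrb, Rgs5, Kcnj8, Abcc9, Anpep and Notch3, which are high in pericytes, and Acta2, Tagln and Myh11, which are high in vascular smooth muscle. They were chosen by name, as the rows whose gene name is one of these, and the rule uses no measured value. Their transcripts were measured in the left hippocampus of C57BL/6 mouse pups at postnatal day 14, in 1 mRNA library per mouse. In the hyperoxia group (3 mice) the pups had been kept with their dams in 85% oxygen at normal pressure from postnatal day 2 to 14. In the air group (3 mice) they were kept in room air. The sex of each mouse is not given, the hippocampus was homogenised whole, and the group of each library rests on the name of its deposited column alone. The sources used here give reason to doubt which group these names stand for, no gene in the table checks them, and if they were exchanged every higher and lower below would turn round.

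Pericytes sit on capillaries and smooth muscle cells on arterioles, and together they are called mural cells. Endothelial cells release platelet-derived growth factor B, which binds its receptor PDGFRB on mural cells and holds them to the vessel, and in the brain this contact is needed for the blood-brain barrier. Notch3 is the Notch receptor of mural cells and keeps arteriolar smooth muscle differentiated. Contractile genes such as Acta2 and Myh11 are switched on by serum response factor (SRF) with its partner myocardin, which bind a DNA element named the CArG box.

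The values are normalised read counts, reads per gene divided by 1 size factor per library, from libraries with 30384052 to 38746972 reads on genes. A difference is the mean of log2(value + 1) in hyperoxia minus that in air, and a gene is called higher or lower where limma's p, adjusted over all 17778 genes tested (mean value of at least 10), is under 0.05. Of these genes 5425 were called, 14.9% of all tested as higher and 15.6% as lower in hyperoxia, with a median difference of −0.01. With 3 mice against 3 the exact two-sided permutation p of a single gene cannot go below 0.1.

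All 9 genes had reads in every library, and 8 passed the filter on low values. By the column names, Rgs5 and Notch3 were higher in hyperoxia-exposed mice, and Pdgfrb, Kcnj8, Abcc9, Anpep, Acta2 and Myh11 were not called. Thus 2 of the 8 tested genes were called higher, beside 14.9% of all genes, and 0 lower, beside 15.6%, by limma. edgeR and DESeq2 on the recovered reads also gave 2 higher and 0 lower, beside 15.6% and 16.5% of all genes called higher. Limma without its mean-variance trend called 1 (Rgs5), beside 11.1%, and 0 were called after each library's trend with transcript length and GC content was removed, beside 14.9%. The median difference of the 8 was 0.08. The 3 hyperoxia libraries lay wholly above the 3 air libraries for Rgs5 and Notch3 alone, against 22.3% of all genes tested.

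**Figure D1:**
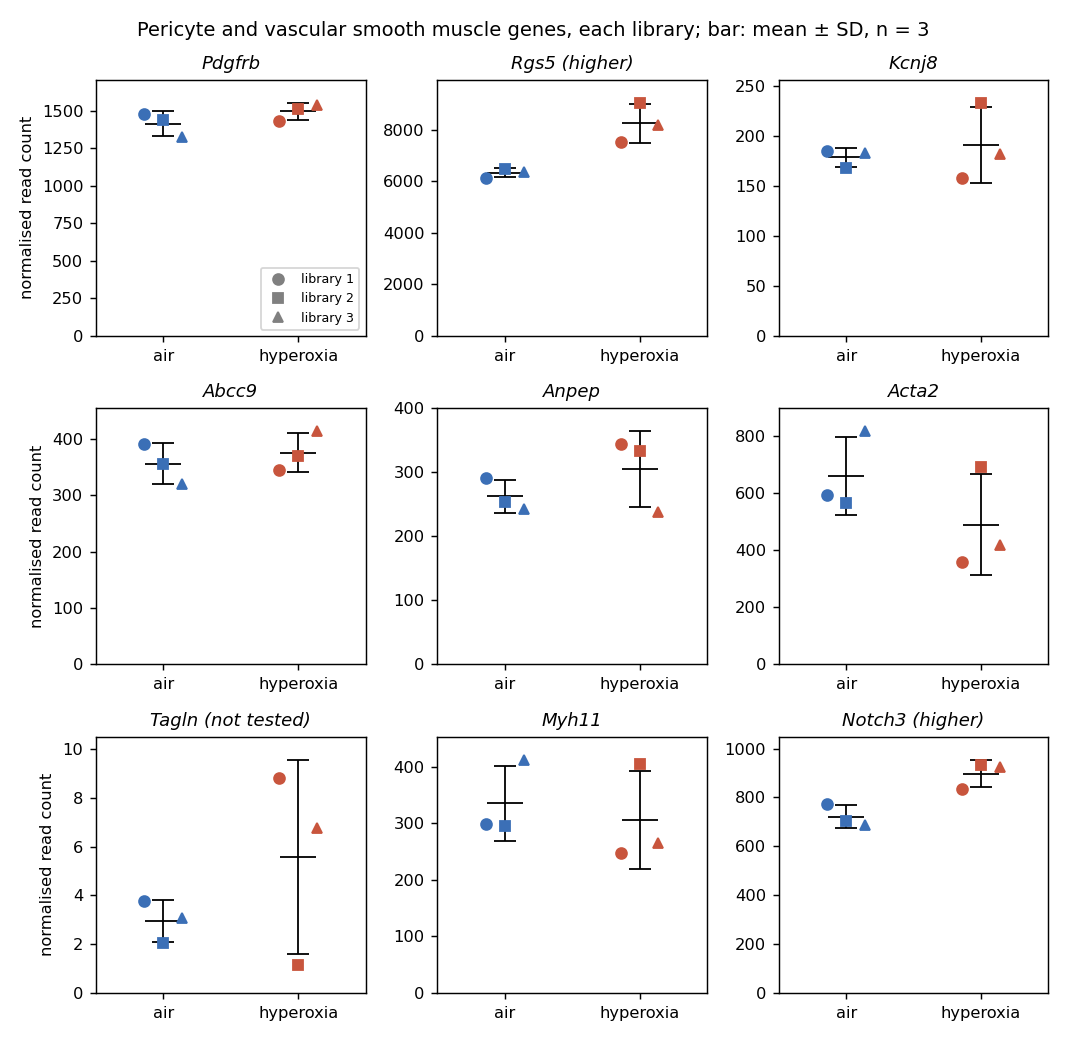
Normalised read count of each of the 9 genes (1 panel per gene, linear axis from 0) in the 3 air and 3 hyperoxia libraries, with the mean and SD of each group. Rgs5 and Notch3 are the panels in which every hyperoxia point lies above every air point, and the Acta2 and Myh11 panels show hyperoxia library 2 apart from the other 2 of its group.

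Compared per kilobase of annotated exon, the genes spanned a wide range of levels. In air-exposed mice the level per kilobase was 1393 ± 38.2 for Rgs5 (SD, n = 3), 299.5 ± 62.0 for Acta2, 258 ± 14.9 for Pdgfrb and 89.2 ± 5.80 for Notch3. It was 70.1 ± 3.72 for Kcnj8, 63.6 ± 6.26 for Anpep, 44.1 ± 8.73 for Myh11, 42.5 ± 4.33 for Abcc9 and 1.49 ± 0.439 for Tagln. Neighbours whose libraries overlapped in this order were Acta2 and Pdgfrb, Kcnj8 and Anpep, and Myh11 and Abcc9, and the same pairs overlapped in hyperoxia-exposed mice. There Pdgfrb, at 273 ± 10.1, had the higher mean per kilobase of the first pair, with Acta2 at 222 ± 80.4, and Abcc9 that of the last. Rgs5 and Tagln stood at the 2 ends in both groups, Tagln on 1 to 10 reads per library and with the limits given below.

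Pdgfrb (ENSMUSG00000024620.11, chr18:61045150-61085061, plus strand, GRCm38) encodes the receptor that anchors mural cells and is the most widely used pericyte marker. Its normalised read counts were 1482, 1438 and 1324 in air (libraries 1 to 3) and 1435, 1515 and 1541 in hyperoxia (libraries 1 to 3). The groups overlapped, since hyperoxia library 1 lay below air libraries 1 and 2. The means were 1415 ± 81.4 in air-exposed mice and 1497 ± 55.6 in hyperoxia-exposed mice (SD, n = 3 each), and the log2 difference was 0.08 (SE 0.08, 95% interval −0.09 to 0.25, limma adjusted p = 0.43). In tissue homogenised whole, fewer cells of a type and less RNA per cell cannot be told apart, here and for every gene that follows.

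Of 6 further PDGF genes, 2 were called higher and 0 lower, with a median of 0.08. Pdgfb, the endothelial ligand of PDGFRB, rose from 1417 ± 17.3 to 1716 ± 164 (SD, n = 3; log2 difference 0.27, adjusted p = 0.034). Its normalised read counts were 1428, 1427 and 1397 in air (libraries 1 to 3) and 1646, 1903 and 1598 in hyperoxia (libraries 1 to 3), with every hyperoxia library above every air library. The count of 2 went to 1 without air library 1, 2 or 3, without hyperoxia library 1 and without limma's trend, and the call lost was that of Pdgfb. In those fits 8.13% to 11.1% of all genes were called higher, against 14.9% in the main fit. Pdgfra, the receptor of oligodendrocyte precursors and fibroblasts, rose by 0.58 on the log2 scale (adjusted p = 5.9e-04). The other 4 were not called, at −0.26 (adjusted p = 0.17) for Pdgfa, 0.10 (adjusted p = 0.67) for Pdgfc, −0.11 (adjusted p = 0.53) for Pdgfd and 0.06 (adjusted p = 0.81) for Pdgfrl, a gene for a PDGF receptor-like protein.

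Rgs5 (ENSMUSG00000026678.10, chr1:169655501-169695813, plus strand) encodes a regulator of G protein signalling that shortens the signal of vasoactive receptors and is abundant in brain pericytes. Its normalised read counts were 6144, 6486 and 6365 in air (libraries 1 to 3) and 7522, 9037 and 8195 in hyperoxia (libraries 1 to 3). Every hyperoxia library was above every air library. The gap between the groups was wider than the spread among the air libraries and narrower than that among the hyperoxia libraries. The means were 6332 ± 174 in air-exposed mice and 8251 ± 759 in hyperoxia-exposed mice (SD, n = 3 each). The log2 difference was 0.38 (SE 0.08, 95% interval 0.20 to 0.56, limma adjusted p = 0.0075), a fold of 1.30 with an interval of 1.15 to 1.47. After removal of the length and GC trend the difference was 0.24 and was no longer called (adjusted p = 0.065).

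The ratio of Rgs5 to Pdgfrb was 4.14, 4.51 and 4.81 in air (libraries 1 to 3) and 5.24, 5.97 and 5.32 in hyperoxia (libraries 1 to 3). Rgs5 was thus higher relative to Pdgfrb in each hyperoxia library than in each air library, a ratio formed after the values had been seen and given without a test. Other RGS genes of the same R4 subfamily gave 0 called higher and 1 lower of 6 tested, from −0.31 (Rgs13) to 0.26 (Rgs3). The one called was Rgs8, a gene made in neurons (−0.23, adjusted p = 0.029), and this call was lost without air library 1, 2 or 3, without hyperoxia library 1 and without limma's trend.

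Notch3 (ENSMUSG00000038146.7, chr17:32120820-32166852, minus strand) gave normalised read counts of 775, 703 and 687 in air (libraries 1 to 3) and 833, 933 and 927 in hyperoxia (libraries 1 to 3). The lowest hyperoxia library was above the highest air library. The means were 722 ± 46.9 in air-exposed mice and 897 ± 56.1 in hyperoxia-exposed mice (SD, n = 3 each). The log2 difference was 0.31 (SE 0.09, 95% interval 0.12 to 0.51, limma adjusted p = 0.023), a fold of 1.24 with an interval of 1.09 to 1.42. This call was the less firm of the 2. Leaving out air library 2, air library 3 or hyperoxia library 3 took the adjusted p to 0.094, 0.092 and 0.051, and the call also went after removal of the length and GC trend (difference 0.18, adjusted p = 0.13). Of its exon bases 6.03% overlap the other-strand gene Gm17276, which had 5.66 to 19.4 normalised reads per library, against 687 or more for Notch3.

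Relative to Pdgfrb, Notch3 stood at 0.523, 0.489 and 0.519 in air (libraries 1 to 3) and 0.580, 0.616 and 0.601 in hyperoxia (libraries 1 to 3), again with the groups apart. The wider Notch pathway gave 4 called higher and 0 lower of 13 genes, with a median of 0.28 and all 13 differences above 0 (8772 of the 17778 genes tested were above 0). Removal of the length and GC trend took Rbpj to −0.025 and left the rest of the 13 above 0. Hes1, a target gene that encodes a repressor, went from 299 ± 18.7 to 489.8 ± 79.0 (0.70, adjusted p = 0.0038). The others called were the receptors Notch1 (0.44, adjusted p = 0.026) and Notch4 (0.34, adjusted p = 0.017), the latter mainly endothelial, and the target Hey1 (0.21, adjusted p = 0.042). The count fell to 1 without air library 1, air library 2 or hyperoxia library 1 and to 2 without air library 3. In those fits 8.13%, 8.31%, 8.87% and 10.2% of all genes were called higher, against 14.9% with all libraries.

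Among the Notch genes that were not called, Heyl, the target most tied to mural cells, differed by 0.38 (adjusted p = 0.17), and Hey2, an arterial target, by 0.31 (adjusted p = 0.11). The ligands differed by 0.27 (adjusted p = 0.11) for Jag1, 0.19 (adjusted p = 0.083) for Jag2, 0.22 (adjusted p = 0.19) for Dll1 and 0.23 (adjusted p = 0.31) for Dll4. Notch2, a second receptor of smooth muscle, differed by 0.28 (adjusted p = 0.14), the feedback regulator Nrarp by 0.36 (adjusted p = 0.13) and Rbpj, the DNA-binding partner of every Notch receptor, by 0.16 (adjusted p = 0.19).

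**Figure D2:**
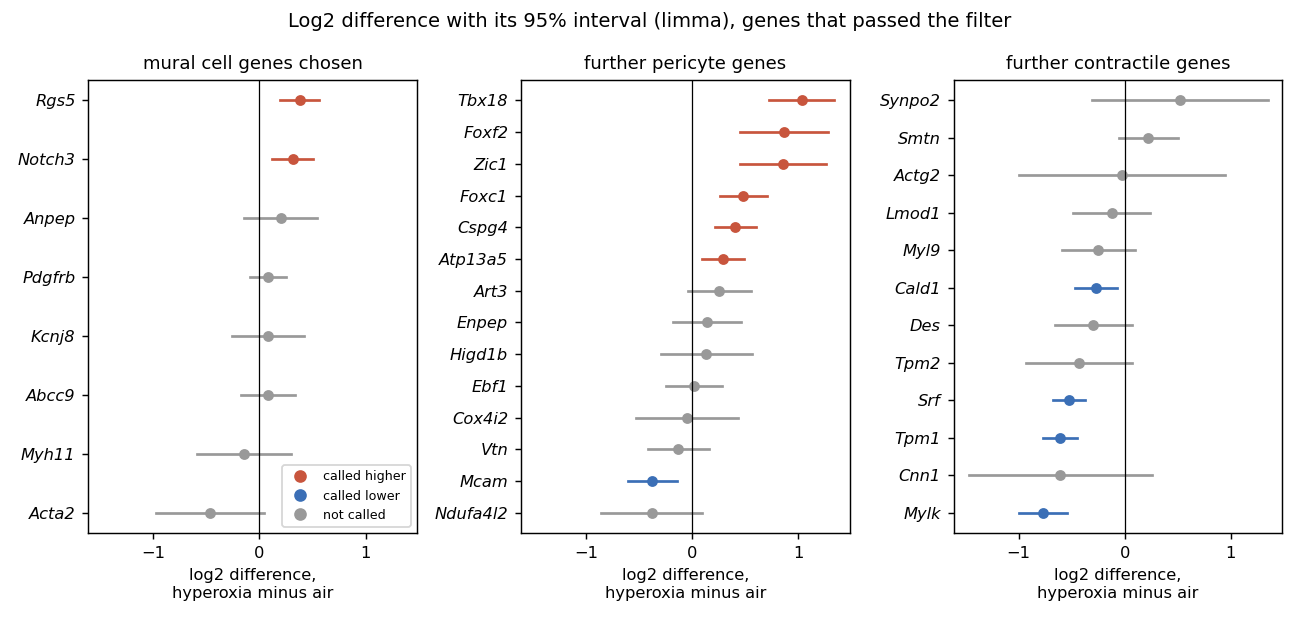
Log2 difference (hyperoxia minus air) with 95% intervals from limma, in separate panels for the 8 tested genes, further pericyte genes and further contractile genes. Among the 8, the intervals of Rgs5 and Notch3 lie above 0, and that of Acta2, from −0.97 to 0.04, reaches furthest below it.

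The promoters of the 2 called genes are shown because they are the sequence before the transcripts that differed. RefSeq (GRCm38.p6) gives a promoter window for 6 of the 9 genes, Rgs5, Kcnj8, Abcc9, Anpep, Notch3 and Acta2. The 250 bases before the RefSeq start are given 5′ to 3′ in the direction of the gene, at chr1:169655251-169655500 (plus strand) for Rgs5 and chr17:32166891-32167140 (minus strand) for Notch3. No capitals appear, since neither holds TGGGAA (the core that RBPJ binds), CATTCC (the core that TEAD factors bind) or a CArG box on either strand. Only the strict form is counted as a CArG box here, CC and GG around a core of 6 bases that are all A or T.
Rgs5: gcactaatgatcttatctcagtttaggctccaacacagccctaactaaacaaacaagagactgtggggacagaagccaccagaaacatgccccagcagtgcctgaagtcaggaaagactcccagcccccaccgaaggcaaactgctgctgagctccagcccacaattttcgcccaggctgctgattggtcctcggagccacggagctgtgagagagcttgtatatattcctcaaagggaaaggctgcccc
Notch3: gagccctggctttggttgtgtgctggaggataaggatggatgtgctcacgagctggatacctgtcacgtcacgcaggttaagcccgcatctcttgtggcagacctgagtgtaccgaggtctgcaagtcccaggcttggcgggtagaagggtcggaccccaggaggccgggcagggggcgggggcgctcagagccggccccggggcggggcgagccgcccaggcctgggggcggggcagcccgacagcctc

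Over 32851 RefSeq windows of this length, TGGGAA stood in 21.6%, CATTCC in 12.6% and a CArG box in 1.47%. A CArG box of the strict form was found in 0 of the 6 windows. TGGGAA and CATTCC were each found in 2, those of Abcc9 and Acta2. In Abcc9 both lie in the stretch chr6:142702477-142702506 (minus strand), where the capitals mark TGGGAA and, overlapping it, GGAATG, the reverse complement of CATTCC.
Abcc9: gtggtcctgaaTGGGAATGgccggagtgat

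Kcnj8 and Abcc9 encode the pore and the sulphonylurea receptor of the vascular ATP-sensitive potassium channel, which relaxes mural cells when it opens. They lie side by side, as ENSMUSG00000030247.9 and ENSMUSG00000030249.15, at chr6:142564837-142571614 and chr6:142587862-142702315, both on the minus strand. For Kcnj8 the normalised read counts were 186, 168 and 183 in air (libraries 1 to 3) and 158, 233 and 182 in hyperoxia (libraries 1 to 3). Hyperoxia library 1 was the lowest of the 6 and hyperoxia library 2 the highest, so the groups overlapped. The difference was 0.08 (SE 0.15, 95% interval −0.26 to 0.42, limma adjusted p = 0.72), and without hyperoxia library 2 it was −0.071.

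For Abcc9 the normalised read counts were 392, 356 and 319 in air (libraries 1 to 3) and 345, 369 and 413 in hyperoxia (libraries 1 to 3). In GENCODE M21, 1.89% of its exon bases overlap another gene, 5330439B14Rik, a name with no deposited values. These groups overlapped as well, with the lowest and the highest values 1 in each group. The difference was 0.08 (SE 0.11, 95% interval −0.18 to 0.33, limma adjusted p = 0.62), and it was −0.16 (adjusted p = 0.33) once the length and GC trend had been removed. The channel type of neurons and beta cells is built from Kcnj11 and Abcc8 instead. Abcc8 fell by 0.46 on the log2 scale (adjusted p = 0.0033), with normalised read counts of 2147, 2096 and 2032 in air (libraries 1 to 3) and 1588, 1377 and 1606 in hyperoxia (libraries 1 to 3), and Kcnj11 was not called (−0.12, adjusted p = 0.26).

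Anpep (ENSMUSG00000039062.15, chr7:79821803-79861059, minus strand) encodes aminopeptidase N, or CD13, a peptidase on the surface of pericytes that is also used to mark them. Its normalised read counts were 292, 254 and 242 in air (libraries 1 to 3) and 344, 334 and 237 in hyperoxia (libraries 1 to 3). Hyperoxia libraries 1 and 2 were above all air libraries, and hyperoxia library 3 was below them all. The difference was 0.20 (SE 0.15, 95% interval −0.14 to 0.54, limma adjusted p = 0.35), and it was called, at 0.37 (adjusted p = 0.048), only when hyperoxia library 3 was left out. Of 5 other surface peptidases 4 were called higher and 0 lower, with a median of 0.72: Dpp4 (0.85, adjusted p = 0.0047), Mme, which encodes neprilysin (0.72, adjusted p = 0.0058), Lnpep (1.63, adjusted p = 0.0089) and Ace (0.66, adjusted p = 0.012).

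Acta2 (ENSMUSG00000035783.8, chr19:34241090-34255590, minus strand) encodes smooth muscle alpha-actin, the main actin of the contractile apparatus. Its normalised read counts were 593, 566 and 814 in air (libraries 1 to 3) and 359, 689 and 417 in hyperoxia (libraries 1 to 3). Hyperoxia libraries 1 and 3 were below every air library, while hyperoxia library 2 lay within the air range. The means were 658 ± 136 in air-exposed mice and 488 ± 177 in hyperoxia-exposed mice (SD, n = 3 each), and the log2 difference was −0.47 (SE 0.23, 95% interval −0.97 to 0.04, limma adjusted p = 0.14). Without hyperoxia library 2 the difference was −0.74, adjusted p = 0.0022, and this was the only one of 16 alternatives in which Acta2 was called. In that fit 22.0% of all genes were called lower, against 15.6% with all libraries.

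The RefSeq promoter window of Acta2 holds letters near those of the strict CArG form. In the 250 bases before its RefSeq start no CArG box of that form was found. There were 2 matches with 1 other base in the core, a pattern present in 7.24% of all windows and in 1 of the 6 examined here. The strict form can leave out sites that SRF binds, and whether SRF binds these 2 was not tested. GENCODE annotates 217 of these 250 bases as exon of Acta2 itself, and the 3 stretches of 30 bases given here, 5′ to 3′ on the minus strand, all lie within that exon. The capitals mark the TEAD core, read from the other strand, at chr19:34255502-34255531, the first near match at chr19:34255438-34255467, and the second, which overlaps TGGGAA, at chr19:34255386-34255415.
Acta2 (TEAD core): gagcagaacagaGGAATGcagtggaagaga
Acta2 (first near match): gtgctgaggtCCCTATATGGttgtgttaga
Acta2 (second near match): tctttgctCCTTGTTTGGGAAgcgagtggg

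Myh11 (ENSMUSG00000018830.8, chr16:14194535-14291372, minus strand), the smooth muscle myosin heavy chain, gave normalised read counts of 299, 295 and 412 in air (libraries 1 to 3) and 247, 405 and 265 in hyperoxia (libraries 1 to 3). Hyperoxia libraries 1 and 3 were again below every air library and hyperoxia library 2 within the air range. The difference was −0.15 (SE 0.20, 95% interval −0.59 to 0.29, limma adjusted p = 0.59). It was −0.37 (adjusted p = 0.063) without hyperoxia library 2 and 0.0071 without air library 3. The ratio of Acta2 to Myh11 was 1.99, 1.92 and 1.98 in air (libraries 1 to 3) and 1.46, 1.70 and 1.57 in hyperoxia (libraries 1 to 3), lower in every hyperoxia library than in every air library, a description chosen after the values had been seen. Across the 6 libraries the log2 values of Acta2 and Myh11 had a Pearson r of 0.93, a description of libraries that share a size factor.

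Tagln (ENSMUSG00000032085.5, chr9:45929619-45936058, minus strand), which encodes transgelin, an actin-binding protein of smooth muscle, was close to the limit of detection. Its normalised read counts were 3.77, 2.04 and 3.08 in air (libraries 1 to 3) and 8.84, 1.13 and 6.76 in hyperoxia (libraries 1 to 3), or 1 to 10 reads per library, and it did not reach the filter. In GENCODE M21, 62.4% of its exon bases are covered by Gm48529, annotated on the other strand, a name with no deposited values. Some are covered by Pcsk7, which had 725 to 830.0 normalised reads per library. The annotation and strand setting of the counting are not known here. The level of Tagln was therefore not compared between groups.

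**Figure D3:**
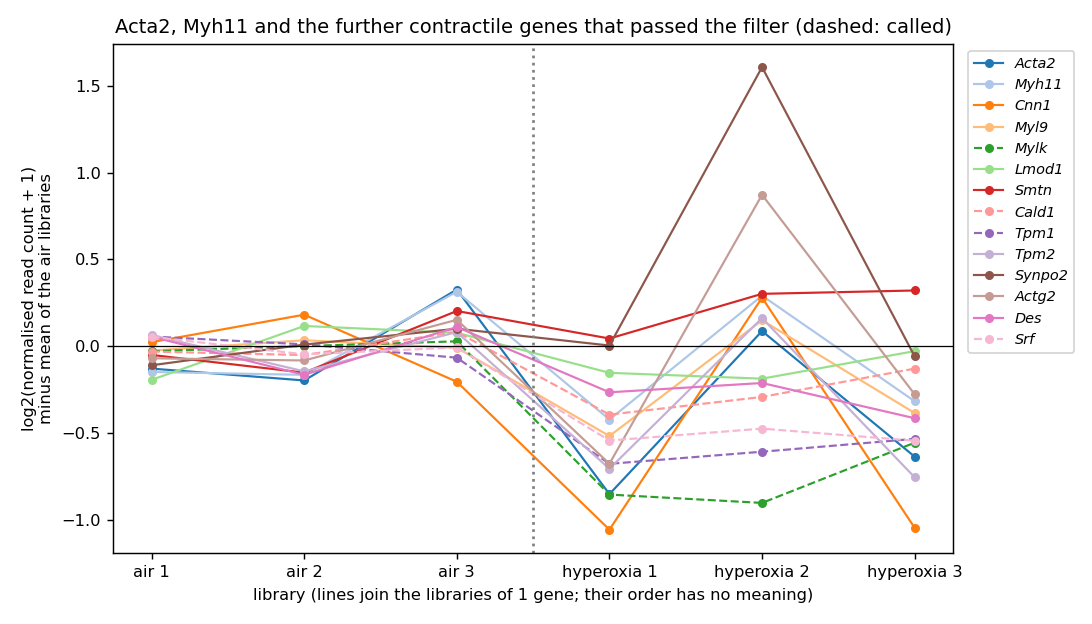
Log2(normalised read count + 1) of Acta2, Myh11 and 12 further contractile genes in each library, minus the mean of the air libraries, with 1 line per gene and dashed lines for the 4 genes called lower. The dashed lines stay below 0 in all hyperoxia libraries, whereas Acta2 and Myh11 lie above 0 in hyperoxia library 2.

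Of 14 further contractile genes 12 were tested, and 4 were called lower and 0 higher, with a median of −0.28. Mylk, which encodes the kinase that triggers smooth muscle contraction, had normalised read counts of 987, 1007 and 1027 in air (libraries 1 to 3) and 556, 538 and 684 in hyperoxia (libraries 1 to 3), a log2 difference of −0.77 (adjusted p = 0.0011). Tpm1 (tropomyosin, −0.61, adjusted p = 7.2e-04), Srf (−0.52, adjusted p = 0.0010) and Cald1 (caldesmon, −0.27, adjusted p = 0.041) were the others, and for all 4 the hyperoxia libraries lay wholly below those from air. All 4 are also made outside smooth muscle, Srf and Tpm1 by neurons among other cells. At the other end of the list Synpo2 differed by 0.52 (adjusted p = 0.31). Pln and Myocd, the gene for myocardin, had means under 10 and were not tested.

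Counting Acta2 and Myh11 with the rest, hyperoxia library 2 was the highest of its group for 9 of the 14 tested contractile genes (64.3%). The share was 58.3% (7 of 12) without those 2, and 40.2% among all genes tested. It was 75.0% for endothelial and 80.0% for astrocyte and blood cell markers, so it was not particular to contractile genes. Hippocampal neuron markers had 28.6% and choroid plexus markers 0%. Air library 3 was likewise the highest of its group for 9 of the 14 (64.3%), and for 35.0% of all genes. Without air library 3, 3 of the 14 were called lower, beside 10.4% of all genes tested, with a median of −0.25. Without hyperoxia library 2, 8 of the 14 were called lower, with a median of −0.46. In that fit more genes were called lower in the whole table as well, 22.0% against 15.6% with all libraries. Those added were Acta2, Cnn1 (calponin, −1.05, adjusted p = 0.018), Myl9 (myosin light chain, −0.45, adjusted p = 0.0017) and Tpm2 (−0.73, adjusted p = 9.4e-04). Over the genes as a whole, hyperoxia library 2 also stood furthest from its group. The chi-square per gene was 31.4 and 47.2 for its pairs and 15.1 for hyperoxia libraries 1 and 3. What sets either library apart was not tested.

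Further pericyte genes gave 6 called higher and 1 lower of 14, with a median of 0.20. Tbx18, a transcription factor of mural cells, had normalised read counts of 103, 86.5 and 89.3 in air (libraries 1 to 3) and 194, 173 and 206 in hyperoxia (libraries 1 to 3), and its log2 difference was 1.03 (SE 0.14, 95% interval 0.73 to 1.34, limma adjusted p = 0.0011). The others with higher values were the transcription factors Foxc1 (0.48, adjusted p = 0.0063), Foxf2 (0.87, adjusted p = 0.0075) and Zic1 (0.86, adjusted p = 0.0075), Cspg4, which encodes the NG2 proteoglycan (0.41, adjusted p = 0.0076), and Atp13a5 (0.29, adjusted p = 0.031). Foxc1, Tbx18 and Zic1 are also made in meningeal cells and Cspg4 in oligodendrocyte precursors. Mcam, which encodes the adhesion protein CD146, was lower (−0.37, adjusted p = 0.023), and Ndufa4l2, at the low end of the list, was not called (−0.38, adjusted p = 0.20). The call of Mcam was lost without air library 2 or 3, without hyperoxia library 1 and without limma's trend. That of Atp13a5 was lost after removal of the length and GC trend (0.19, limma adjusted p = 0.071). The count called higher was 5 without air library 1, 2 or 3 or hyperoxia library 1 or 3, and 6 without hyperoxia library 2.

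The 12 genes tested of the angiopoietin and TGF-beta signals between endothelium and mural cells had 5 called higher and 2 lower, with a median of 0.27. Angpt1, the mural cell ligand of the endothelial receptor Tie2, rose (0.44, adjusted p = 0.0098), as did Tie1 (0.41, adjusted p = 0.010) and Tek, the gene for Tie2 itself (0.40, adjusted p = 0.019). The TGF-beta family receptors Tgfbr2 (0.49, adjusted p = 0.0057) and Acvrl1 (0.49, adjusted p = 0.011) rose too. The ligand Tgfb2 (−0.56, adjusted p = 0.0077) and the sphingosine phosphate receptor S1pr1 (−0.29, adjusted p = 0.015) fell. The 7 calls went to 4 without air library 1 and to 3 without air library 2. In those fits 17.1% and 17.4% of all genes were called in either direction, against 30.5% with all libraries. After removal of the length and GC trend, limma no longer called Angpt1 (0.27, adjusted p = 0.051) or Tgfbr2 (0.27, adjusted p = 0.056). Eng, another receptor of the list, was called higher in that fit (0.25, adjusted p = 0.035).

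Markers of other cells in the dissected tissue moved between the groups. Of 12 endothelial markers 5 were called higher, led by Kdr (0.61, adjusted p = 0.0016) and Cldn5 (0.57, adjusted p = 0.0030), and 2 lower, led by Ly6c1 (−0.96, adjusted p = 9.8e-04), and their summed normalised read count was 12554 to 13081 in air and 14110 to 16200 in hyperoxia. Of 10 fibroblast and meningeal markers 9 were called higher and 0 lower, from 0.12 for Dcn to 1.33 for Ogn, and their sum was 8318 to 10394 in air and 11239 to 17055 in hyperoxia. Fibroblasts of the meninges and of large vessels also make Pdgfrb and Anpep. Of 6 perivascular macrophage markers 4 were higher and 0 lower, led by Mrc1 (1.25, adjusted p = 3.9e-04), and their sum was 347 to 494 in air and 886 to 937 in hyperoxia.

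Choroid plexus markers, 2 called higher and 0 lower of 9 tested, summed to 15981 in hyperoxia library 3 and to between 4196 and 6381 in the other 5 libraries. Blood cell markers gave 1 higher and 1 lower of 5 (sum 1748 to 2835 in air, 2527 to 4042 in hyperoxia), and astrocyte markers 2 higher and 0 lower of 5. Hippocampal neuron markers gave 0 higher and 3 lower of 7, led by Neurod6 (−0.75, adjusted p = 0.0014), with sums of 50108 to 53115 in air and 32633 to 48475 in hyperoxia. Leaving out a library moved the count by over 1.5 times for endothelial markers (4 called without air library 2), choroid plexus markers (1 without air library 2 or hyperoxia library 1), blood cell markers (0 without air library 1, 1 without air library 3 or hyperoxia library 1) and hippocampal neuron markers (5 without hyperoxia library 3). The hippocampal marker Prox1, of dentate granule cells, averaged 8259 in air, and no gene of these lists was at 0 in any library. The part of these cells in the differences of Rgs5, Notch3 and the other mural cell genes was not tested.

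**Figure D4:**
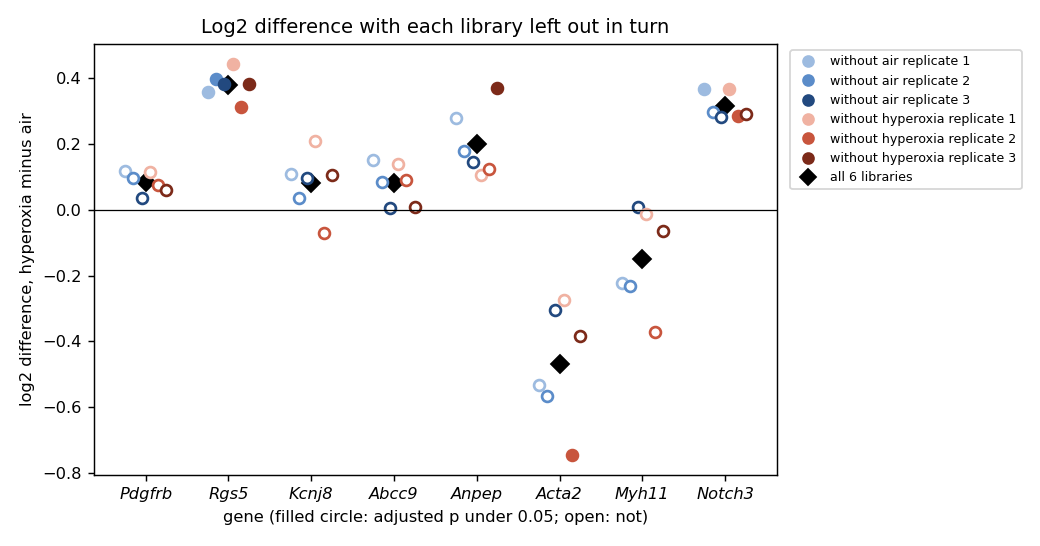
Log2 difference (hyperoxia minus air) of each tested gene in all 6 libraries and after dropping each one singly. Rgs5 stays between 0.31 and 0.44 and Notch3 between 0.28 and 0.37, while Acta2 ranges from −0.74 to −0.27 and Kcnj8 and Myh11 cross 0.

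The genes did not share 1 pattern over the 6 libraries. The Pearson r of the log2 values was 0.91 for Pdgfrb with Abcc9, 0.90 for Rgs5 with Notch3, 0.83 for Pdgfrb with Notch3, 0.23 for the channel partners Kcnj8 and Abcc9, and −0.28 for Rgs5 with Acta2. Among 14091 other genes with a mean of at least 50, those most like Pdgfrb were Mmp9 (r = 0.979), Hikeshi (0.976), Rpn1 (0.974), Utp18 (0.970) and 5730480H06Rik (0.965). Those most like Acta2 included Relt (0.988), Dll3 (0.987), Sumf2 (0.982) and Gm5148 (0.977). With 6 libraries and this many genes such values are descriptions only.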

How the data were processed

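RNA from the left hippocampus of 3 air-exposed and 3 hyperoxia-exposed mice was sequenced as strand-specific, polyA-selected libraries. Per the labels, the authors used FastQC, STAR 2.5.3a, HTSeq and DESeq2. The sources used here do not give the build, annotation or strand setting. The deposited signal of each gene holds reads scaled by the authors with one size factor for each library, and 100% of values were whole multiples of 1 read (tolerance 0.01 read), so reads were recovered. The deposited comparison table of the authors (log2 fold changes, p-values) was not used. Every direction follows the group named in the deposited column, which is in doubt and could not be settled from the files. The numbers 1 to 3 name columns and not animals. Replicate pairs differed by more than counting error, with a chi-square per gene of 6.54 to 10.5 between air libraries. It was 15.1 for hyperoxia libraries 1 and 3, and 31.4 and 47.2 for the pairs with hyperoxia library 2. Without hyperoxia library 2, limma called 43.6% of all genes in either direction, against 30.5% with all libraries. No library was counted as a repeat of another.

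Values were tested as log2(value + 1) in limma 3.58.1 under R 4.3.3 (trended prior), for genes averaging 10 or more, and p-values were adjusted by Benjamini and Hochberg with calls made under 0.05. Such differences understate the change of low genes. The 16 alternatives were a pseudocount of 0.5 or 5, dropping the filter, raising it to 50, quantile and TMM scaling, no trend, edgeR 4.0.16 (5501 genes called) and DESeq2 1.42.0 (5611) on the recovered reads, each library left out, and removal of each library's trend with length and GC content (mgcv 1.9.3, 17735 genes). Only the limma fit was tested on simulated data, in which far fewer genes differed than were called here. Coordinates and exon lengths are from GENCODE M21 (GRCm38), which holds 99.7% of the deposited gene IDs. Promoters are RefSeq's (GRCm38.p6). The 9 genes and the 15 lists were chosen with earlier results of these data known. All genes of the PDGF, Notch and channel lists are named, and from the other lists up to 4 called genes per direction by adjusted p and those at the ends of the range, with marker lists of other cells given mainly as counts. Some genes that this rule names are not reported here. Mice are taken as the replicates. The limma p-values set the difference between the groups against the spread within them, drawn toward a trend over all genes, for these 6 libraries. The litter of each mouse is not given here, so an effect of litter or of shared housing cannot be told apart from that of oxygen. Python 3.11.15, pandas 2.3.3 and scipy 1.17.1 were used.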

Additional observations from a re-analysis of the deposited data

How the results depend on the processing

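With each library left out in turn, Rgs5 stayed called (0.31 to 0.44). The range was 0.28 to 0.37 for Notch3, −0.74 to −0.27 for Acta2, −0.37 to 0.0071 for Myh11, −0.071 to 0.21 for Kcnj8 and 0.10 to 0.37 for Anpep. Of the 9 genes 1 to 2 were then called higher and 0 to 1 lower, while among all genes 1445 to 3838 were called higher (2643 with all libraries) and 1603 to 3918 lower (2782). The number called ranged from 1 to 3 for the PDGF list, 1 to 5 for Notch, 3 to 7 for angiopoietin and TGF-beta, 0 to 2 for R4 RGS genes, 4 to 8 for endothelial, 3 to 7 for contractile, 1 to 3 for choroid plexus, 0 to 2 for blood cell and 2 to 5 for hippocampal neuron markers.

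Removal of the length and GC trend left 0 of the 9 genes called, with differences of 0.24 for Rgs5, 0.18 for Notch3 and −0.16 for Abcc9, and 5 hippocampal neuron markers called. Limma without the trend left 1 of the 9 genes called, Rgs5, and gave 0.31 (adjusted p = 0.051) for Notch3, with 1 PDGF gene, 2 Notch genes, 0 R4 RGS genes and 0 blood cell markers called. With a mean of at least 50, 1 choroid plexus marker was called. The cause was not tested. Rgs5 was called in 15 of the 16 alternatives and Notch3 in 11, and the calls of the other lists stayed within 1.5 times. No paired analysis was possible because the labels number the animals 1 to 6 and share no number between the groups. Tagln had 1 to 10 reads per library, too few to enter the test.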
